A study of Homo sapiens with 7 samples.

Results

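The regions described here are intervals of HCT116 chromatin that were called for H3K4me3, narrower than 4000 bp, and that share at least 1 bp with an interval called for H3K27me3. They were selected on measured values, because both the H3K4me3 list and the H3K27me3 list decide which intervals belong. Of 16112 H3K4me3 intervals, 15770 were under the width limit, and 789 of these, or 5.0%, overlapped one of the 55270 H3K27me3 intervals. The remaining 14981 H3K4me3 intervals under the width limit touched no H3K27me3 interval and serve as comparison intervals throughout. A further 14 intervals overlapped H3K27me3 but were too wide to be members. The rule itself fixed the share of 5.0%, so nothing is read from it. The H3K27me3 intervals together covered 7.16% of the hg19 sequence.

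Trimethylation of lysine 4 of histone H3 is placed at promoters by MLL and SET1 complexes and accompanies transcription start sites (TSSs), whereas trimethylation of lysine 27 is placed by the polycomb complex PRC2 and accompanies silenced genes. Promoters that carry both marks are called bivalent and are best known from stem cells, where they lie in CpG-rich sequence at genes for developmental regulators. When a single mark is called in a whole cell population, an overlap does not show that both marks sit on the same nucleosome, allele or cell.

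HCT116 is an established line derived from a colorectal carcinoma. Chromatin for immunoprecipitation came from crosslinked wells of 200000 cells, and the PIXUL sonicator sheared a volume of 100 µl during 6 min. The antibodies recognised H3K4me1, H3K4me3, H3K9Ac, H3K27Ac, H3K27me3, H3K36me3 and CTCF, with 1 library each and no replicate. The H3K27Ac library was not analysed here. No depth can be read from lists of intervals, so the intervals given with shares are 95% Wilson intervals that reflect counting error alone, and no difference between marks was tested. An H3K4me3 interval lay within 1 kb of the TSS at 12428 of all 20162 protein-coding genes (61.6%), at 8 of 12 markers of colon epithelium, among them EPCAM, CDH1, KRT8, KRT18, KRT19 and CDX2, and at 3 of 7 markers of mesenchyme (VIM, COL1A1 and TWIST1), 3 of 5 of neurons (SYT1, TUBB3 and MAP2), 0 of 5 of blood and 0 of 3 annotated markers of endothelium. The share of epithelial markers is close to that of all genes, so these counts do not establish the cell type. The epithelial markers KRT20, VIL1, CDX1 and CEACAM5 had none, and CEACAM5 had H3K27me3 (fold enrichment 3.95). Every interval name in 5 of the lists carries the name HCT116, but 0 of the 55270 names in the H3K27me3 list do, although the label of that library gives the same cell line.

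The promoters of a few members show what a region looks like in sequence. Shown are the 200 bases upstream of the canonical TSS, 5′ to 3′ on the strand of the gene, of 3 members among the 10 with the highest H3K27me3 fold enrichment past the limits described below. The bases come from hg19, and CpG dinucleotides, the places where cytosine can be methylated, are in capitals. CHN1 (minus strand, chr2:175870110-175870309) encodes a Rac-regulating protein of axon guidance. WNT7A (minus strand, chr3:13921569-13921768) encodes a Wnt ligand. BMI1 (plus strand, chr10:22609828-22610027) encodes a subunit of the polycomb complex PRC1. The windows hold 26, 26 and 25 CpGs in this order, with GC contents of 74.5, 82.0 and 74.5%.
CHN1: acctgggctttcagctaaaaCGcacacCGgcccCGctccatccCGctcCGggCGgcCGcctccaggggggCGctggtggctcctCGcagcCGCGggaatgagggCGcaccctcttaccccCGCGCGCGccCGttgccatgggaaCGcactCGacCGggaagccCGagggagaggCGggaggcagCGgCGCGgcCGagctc
WNT7A: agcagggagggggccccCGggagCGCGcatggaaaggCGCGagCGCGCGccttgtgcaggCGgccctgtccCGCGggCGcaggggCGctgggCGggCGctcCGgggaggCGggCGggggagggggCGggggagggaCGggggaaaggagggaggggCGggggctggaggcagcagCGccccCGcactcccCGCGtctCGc
BMI1: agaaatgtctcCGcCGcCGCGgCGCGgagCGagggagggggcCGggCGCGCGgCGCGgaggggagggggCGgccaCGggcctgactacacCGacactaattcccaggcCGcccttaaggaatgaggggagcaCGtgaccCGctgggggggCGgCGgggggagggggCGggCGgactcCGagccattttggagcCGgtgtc

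Not every member looks like this. Chosen after their values were seen, 2 members with a different kind of sequence are shown next, again from hg19 and on the plus strand. Given are the first 180 bases of regions of 2511 bp (chr18:76774517-76774696) and 632 bp (chr22:51082082-51082261), both outside annotated genes. There the capitals mark the word of 12 bases that occurs most often in the region, 47 times on chromosome 18 and 15 times on chromosome 22. These regions had the 2 highest H3K27me3 fold enrichments of all members, 10.8 and 9.47.
repeat, chromosome 18: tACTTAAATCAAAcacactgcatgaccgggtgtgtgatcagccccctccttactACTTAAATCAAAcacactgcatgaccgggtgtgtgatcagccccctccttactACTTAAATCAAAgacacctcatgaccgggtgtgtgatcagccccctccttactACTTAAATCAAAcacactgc
repeat, chromosome 22: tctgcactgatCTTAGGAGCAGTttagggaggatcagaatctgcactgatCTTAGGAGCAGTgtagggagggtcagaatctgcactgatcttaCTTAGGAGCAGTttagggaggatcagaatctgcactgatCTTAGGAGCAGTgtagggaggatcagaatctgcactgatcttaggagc

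Fold enrichment, the ratio of signal to local background that the authors' peak caller gave each interval, describes how strong the marks were. Since the rule used these lists, the values are a description. Across the 789 regions the H3K4me3 fold enrichment ranged from 1.58 to 40.6 with a median of 9.09, compared with a median of 18.3 over the comparison intervals. The strongest H3K27me3 interval touching a region had a fold enrichment between 1.60 and 10.8, with a median of 3.22. Its −log10 q-value, the peak caller's measure of confidence, had a median of 2.06. As a whole, the regions therefore hold weaker H3K4me3 than its other intervals and mostly faint H3K27me3. This did not hold in every class. Without a TSS within 1 kb the median H3K4me3 fold enrichment was 4.93 in regions and 4.83 in comparison intervals. Among intervals of 350 to 1000 bp it was 4.78 and 4.65, and among narrower ones 4.64 and 3.64.

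The Methods of the study give limits for a confident interval. They are a q-value under 1e-03 with a fold enrichment over 2 for H3K27me3 and a q-value under 1e-10 with a fold enrichment over 5 for H3K4me3. Of the 789 regions, 496 passed the H3K4me3 limits (62.9%, 59.4 to 66.2%), and 208 touched an H3K27me3 interval past its own (26.4%, 23.4 to 29.5%). Both sets of limits were met at 113 regions, only those of H3K4me3 at 383, only those of H3K27me3 at 95 and neither at 198. The regions strong in both marks were thus a minority, and coding TSSs were more frequent where H3K4me3 passed its limits. A protein-coding TSS lay within 1 kb of 73 of the 113 regions past both sets of limits (64.6%, 55.4 to 72.8%) and of 308 of the 383 past those of H3K4me3 alone (80.4%, 76.1 to 84.1%). Among the 95 regions past the H3K27me3 limits alone it was 13 (13.7%, 8.17 to 22.0%), and among the 198 past neither 61 (30.8%, 24.8 to 37.6%).

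**Figure D1:**
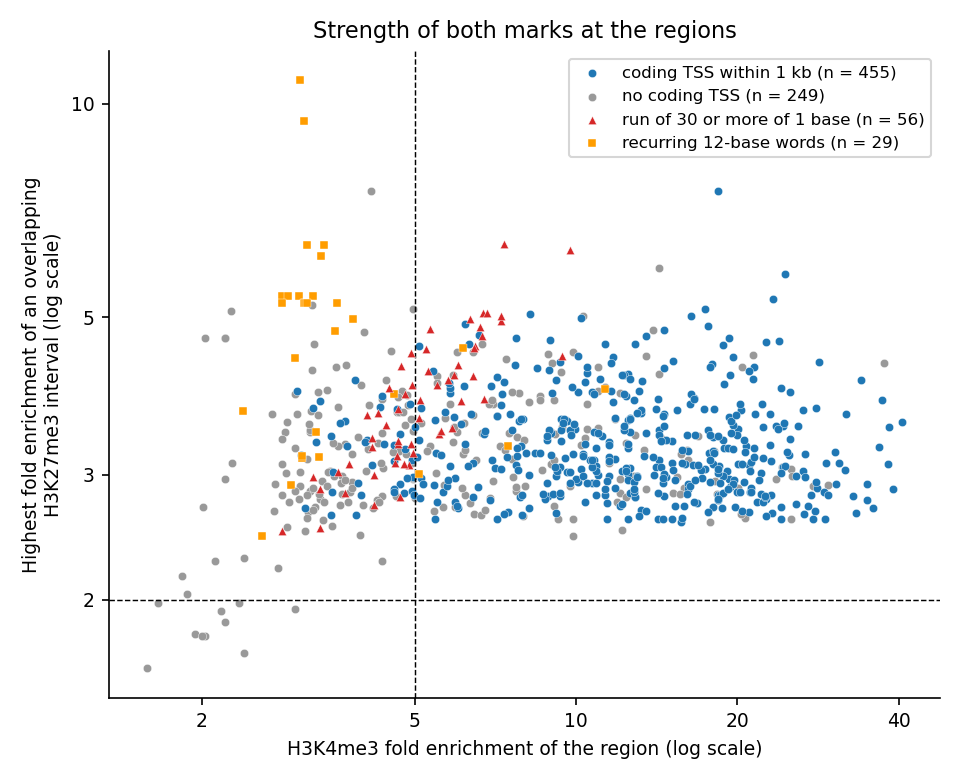
Each point is 1 of the 789 regions, placed by its H3K4me3 fold enrichment and by the highest fold enrichment of an H3K27me3 interval that overlaps it, both on log axes, with dashed lines at the fold enrichment limits of 5 and 2. The 455 regions with a coding TSS (blue) spread over the range of H3K4me3, whereas the 29 with recurring words (orange) include the 2 highest H3K27me3 values, at low H3K4me3.

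The ranks of the fold enrichments of both marks were nearly unrelated across the regions (Spearman's rho −0.05, n = 789, all from the same library of each mark). Among the 56 regions that contain a run of at least 30 identical bases rho was 0.83. For the 455 regions at coding TSSs rho was −0.08. The rule selected on both values, so these are descriptions. By bands of H3K4me3 fold enrichment, divided at 7.81, 17.8 and 25.2, the share of regions past the H3K27me3 limits was 34.1% (29.3 to 39.2%), 22.9% (18.4 to 28.2%), 17.7% (11.8 to 25.8%) and 7.14% (2.46 to 19.0%). The median share of the region that H3K27me3 covered was 100, 48.1, 30.4 and 20.8%. Without long runs and recurring words the shares past the limits were 24.2% (19.5 to 29.6%), 22.1% (17.6 to 27.4%), 17.7% and 7.14%. The median overlap was 493, 723, 558 and 408 bp, in regions whose median width was 671, 1410, 1730 and 2010 bp.

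The overlap itself ran from a few bases to the whole region. At 311 regions (39.4%, 36.1 to 42.9%) H3K27me3 covered every base, at 412 (52.2%, 48.7 to 55.7%) it reached over 1 end only, at 10 it covered both ends with a gap inside, and at 56 (7.10%, 5.51 to 9.10%) it lay inside the region. The median overlap was 534 bp, or 72.9% of the region. The slightest was the region at EBF4, which encodes a transcription factor of the early B-cell factor family, with 2 bp of its 1713 bp. Regions that barely touch H3K27me3 and regions buried in it are therefore counted alike by the rule. The region with the strongest H3K4me3 of all, at CBX2 (chr17:77751164-77753150, fold enrichment 40.6), shared only 10 bp with H3K27me3. CBX2 encodes the PRC1 subunit that reads the polycomb mark.

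At the width limit, the widest members lay at DUSP8 (3927 bp, H3K4me3 fold enrichment 18.8), VCAN (3960 bp, 6.41) and SMAD6 (3976 bp, 20.6). They encode a MAP kinase phosphatase, a matrix proteoglycan and an inhibitor of BMP signals. Just beyond the limit lay the intervals at PDGFA (4000 bp, 23.4) and NR3C2 (4200 bp, 18.3), which encode a growth factor and the mineralocorticoid receptor, and an interval without an annotated TSS on chromosome 3 (4249 bp, 2.20). The median width of the regions was 1199 bp, against 1716 bp for the comparison intervals.

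The regions touched 777 distinct H3K27me3 intervals. Their median width was 2139 bp and 191 of them passed the limits (24.6%, 21.7 to 27.7%), compared with a median of 1893 bp and 2.81% (2.67 to 2.95%) over all H3K27me3 intervals. Most held a single region (758 intervals), 16 held 2, and 3 held between 3 and 5. A region was therefore usually the only one in its H3K27me3 interval. Among the autosomes, the share of H3K4me3 intervals that were regions ran from 3.13% on chromosome 19 (2.26 to 4.32%) to 10% on chromosome 18 (6.79 to 14.6%).

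Most regions lay at annotated starts of genes. A protein-coding gene had its canonical TSS within 1 kb of 455 regions (57.7%, 54.2 to 61.1%), and another 89 (11.3%, 9.26 to 13.7%) were near the TSS of a non-coding gene or pseudogene only. Of the 245 regions without a TSS, 161 lay inside an annotated gene and 84 outside. Among the comparison intervals, 67.9% (67.2 to 68.7%) had a coding TSS. Counted by gene, 468 of 20162 protein-coding genes had a region, or 2.32%. H3K4me3 without H3K27me3 was found at 11865 genes (58.8%), H3K27me3 without H3K4me3 at 1398 (6.93%), both marks without a region at 95, and neither at 6336.

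The regions shared more than the rule asked for in their base composition. Their median GC content was 65.6%, against 58.2% in the comparison intervals, and their ratio of observed to expected CpG was 0.778, against 0.687. At coding TSSs the medians were 67.9% for the regions and 58.2% for the comparison intervals. An interval was called CpG-rich with a GC content of at least 50% and a ratio of at least 0.6, and this held for 437 of the 455 regions at coding TSSs (96.0%, 93.8 to 97.5%) and for 73.1% (72.2 to 74%) of the comparison intervals there. The regions at genes were thus nearly all of the CpG-rich promoter class in which bivalent domains are usually described. Those without a TSS were CpG-rich in 49.8% (43.6 to 56.0%).

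In the 200 bases upstream of the TSS, 6 short strings were searched on both strands, none of which contains another. GGGCGG, the core of the GC box, was present at 81.6% of the 468 genes with a region (77.9 to 84.9%), at 71.8% (71.0 to 72.6%) of the genes with H3K4me3 alone and at 56.0% (55.3 to 56.6%) of all 20140 windows without unknown bases. CCGGAAGT, which ETS factors bind, was present at 0.855% (0.333 to 2.18%) of region genes, at 7.58% (7.12 to 8.07%) with H3K4me3 alone and at 4.74% (4.46 to 5.04%) of all. TATAAA was found at 4.91% (3.30 to 7.27%) of region genes, at 3.32% (3.02 to 3.66%) with H3K4me3 alone and at 7.85% (7.48 to 8.22%) of all. CCAAT was found at 26.7% (22.9 to 30.9%) of region genes, at 31.2% (30.4 to 32.1%) with H3K4me3 alone and at 30.3% (29.6 to 30.9%) of all. CACGTG, the E-box of bHLH factors, was found at 7.69% (5.61 to 10.5%) of region genes, at 8.17% (7.69 to 8.68%) with H3K4me3 alone and at 6.95% (6.61 to 7.31%) of all. TGACTCA, the AP-1 site, was found at 0.641% (0.218 to 1.87%) of region genes, at 1.57% (1.36 to 1.81%) with H3K4me3 alone and at 2.49% (2.28 to 2.71%) of all. The median GC content of these windows was 74% at region genes, 68.0% with H3K4me3 alone and 64.5% over all genes. Of the strings, GGGCGG was thus the most frequent at region genes, and the ETS string was rarer there than with H3K4me3 alone. Of the windows printed above, all 3 hold GGGCGG and that of BMI1 also holds CACGTG.

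Marks that the rule did not use were called at the regions and at other H3K4me3 intervals in differing shares. H3K9Ac, an acetylation of active promoters, overlapped 721 regions (91.4%, 89.2 to 93.1%), compared with 98.3% (98.1 to 98.5%) of the comparison intervals and 98.0% of all H3K4me3 intervals under 4000 bp. H3K4me1, the monomethylation found at enhancers and on the flanks of promoters, overlapped 714 regions (90.5%, 88.2 to 92.3%), against 93.1% (92.7 to 93.5%) and 93.0% over all. For H3K36me3, which is laid down in transcribed gene bodies, the number was 56 regions (7.10%, 5.51 to 9.10%), against 12.3% (11.8 to 12.9%) and 12.1%. CTCF, a protein that binds DNA and anchors chromatin loops, overlapped 436 regions (55.3%, 51.8 to 58.7%), against 43.9% (43.1 to 44.7%) and 44.4%. Counted by any overlap, the regions therefore had H3K9Ac, H3K4me1 and H3K36me3 less often and CTCF more often than the comparison intervals. For H3K4me1 and H3K36me3 this order depended on the setting. H3K4me1 was at 94.3% of regions and 93.4% of comparison intervals without long runs and recurring words, at 98.2% and 95.5% at coding TSSs and at 99.2% and 95.3% with H3K4me3 past the limits. H3K36me3 was at 16.8% (12.4 to 22.5%) of the regions with H3K27me3 past the limits, above the share of the comparison intervals. Of these 208 regions, however, 36 held long runs and 22 recurring words. At coding TSSs the order was the opposite. There H3K36me3 was at 1.37% (0.242 to 7.36%) of the 73 regions past both sets of limits. It was at 15.5% (14.8 to 16.2%) of the comparison intervals with H3K4me3 past the limits. Where the mark had to cover at least 50% of the interval, H3K4me1 was at 88.1% of regions and 68.8% of comparison intervals, and H3K36me3 at 5.07% and 1.44%. H3K4me1 past the limits of the Methods was at 83.9% of regions and 78.2% of comparison intervals, and H3K9Ac past its limits at 54.9% and 81.4%.

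Because the regions as a whole hold weaker H3K4me3, these shares were also set side by side within the same 4 bands of H3K4me3 fold enrichment. In the lowest band, with 355 regions, H3K9Ac overlapped 80.8% of regions (76.4 to 84.6%) and 93.1% of comparison intervals (92.2 to 93.8%). In each of the other bands it overlapped 100% of both, to 3 digits. A share that is full in both groups cannot show a difference, but the strength of H3K9Ac can. The median H3K9Ac fold enrichment was 4.63 at regions and 5.31 at comparison intervals in the lowest band, then 8.11 and 9.10, 11.8 and 12.6, and 16.7 and 16.4. At the TSS base, H3K9Ac was at 80.6% (71.9 to 87.1%) of region genes and 85.1% (82.0 to 87.8%) of genes with H3K4me3 alone in the lowest band. The shares were 96.4% (93.0 to 98.2%) and 98.0% (97.5 to 98.5%) in the second band and 97.1% (91.9 to 99.0%) and 99.5% (99.3 to 99.7%) in the third. In the highest they were 100% (91.0 to 100%) and 99.7% (99.5 to 99.8%). In these medians H3K9Ac was thus lower at regions in each band but the highest. The bands did not make H3K4me3 itself equal. Its median fold enrichment was 4.63 at regions and 4.26 at comparison intervals in the lowest band, then 11.8 and 13.4, 20.6 and 21.6, and 29.2 and 29.8. The part that this remaining difference has in H3K9Ac was not tested. For H3K4me1 the shares were 80% (75.5 to 83.8%) of regions and 84.2% (83.0 to 85.4%) of comparison intervals in the lowest band and 98.6% (96.4 to 99.4%) and 90.8% (89.8 to 91.7%) in the second. They were 100% (96.7 to 100%) and 97.5% (97 to 98.0%) in the third and 100% (91.6 to 100%) and 99.1% (98.7 to 99.3%) in the highest. Without long runs and recurring words, the lowest band had 86.8% (82.3 to 90.3%) against 85.4% (84.2 to 86.5%), the same order as in the others.

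CTCF was more frequent at the regions in every band of H3K4me3, though not in every class of width. Its share was 52.7% (47.5 to 57.8%) against 37.3% (35.7 to 38.9%) in the lowest band and 52.0% (46.1 to 57.8%) against 40.6% (39.0 to 42.2%) in the next. It was 61.9% (52.7 to 70.4%) against 42.4% (40.8 to 44%) in the third and 81.0% (66.7 to 90.0%) against 54.4% (52.9 to 56.0%) in the highest, which holds 42 regions. Without long runs and recurring words, the lowest band had 43.6% (37.8 to 49.5%) against 36.2% (34.6 to 37.8%). Among intervals of 350 to 1000 bp, CTCF overlapped 36.8% of regions (30.8 to 43.2%) and 39.0% of comparison intervals (37.2 to 40.9%). With CTCF intervals held to the limits that the Methods give for histone marks such as H3K4me3, the shares were 24.2% and 22.9%. The median CTCF fold enrichment was 5.91 at regions and 7.10 at comparison intervals. By band it was 5.69 and 10.4, 6.75 and 8.28, 5.55 and 6.48, and in the highest 5.69 and 5.12. Over the TSS base, CTCF was at 31.4% of region genes and 29.8% of genes with H3K4me3 alone.

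H3K36me3 behaved unevenly. In the lowest band it overlapped 13.2% of regions (10.1 to 17.2%) and 5.69% of comparison intervals (4.97 to 6.49%), but in the next band 1.79% (0.768 to 4.13%) against 5.76% (5.05 to 6.56%), in the third 0 of 113 regions (0 to 3.29%) against 13.4% (12.4 to 14.5%), and in the highest 9.52% (3.77 to 22.1%) against 23.5% (22.2 to 24.9%). Part of the lowest band consists of regions with long runs or recurring words, and without them the share there was 6.23% (3.92 to 9.75%) against 4.90% (4.22 to 5.67%). At coding TSSs, 5 of 455 regions overlapped H3K36me3 (1.10%, 0.470 to 2.55%), compared with 15% (14.3 to 15.7%) of comparison intervals. Among intervals narrower than 2000 bp, however, the overall order was reversed, with 7.38% of regions and 5.57% of comparison intervals.

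**Figure D2:**
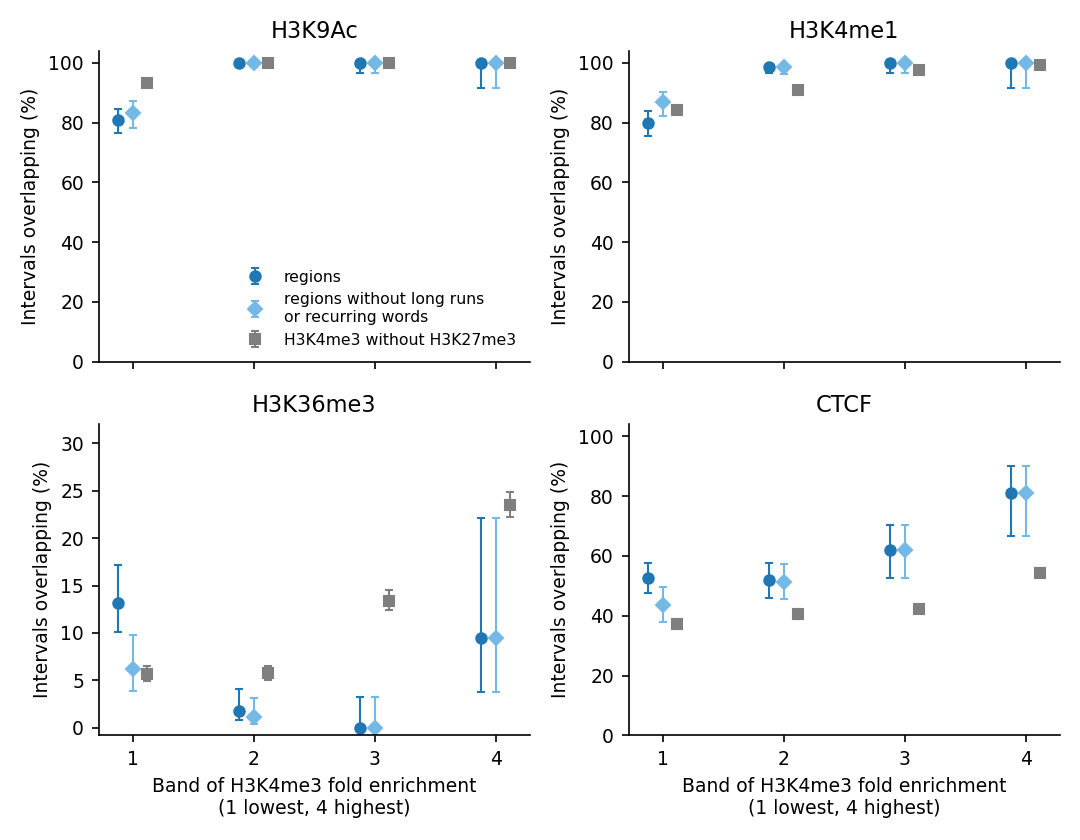
Share of intervals that overlap each other mark, by band of H3K4me3 fold enrichment, for the regions (dark blue circles), the regions without long runs or recurring words (light blue diamonds) and the comparison intervals (grey squares), with bars for 95% Wilson intervals. CTCF is higher at the regions in each band, from 52.7% against 37.3% in the lowest to 81.0% against 54.4% in the highest.

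Around the TSS the marks had distinct shapes. H3K27me3 was most frequent just downstream of the start, with a shallow dip at the start itself. Its height near the start follows from the rule, which chose these genes for H3K27me3 at an H3K4me3 interval within 1 kb. H3K4me3 itself lay 1 kb upstream at 24.4% of region genes and 1 kb downstream at 37.4%. The part that this placement has in the shape was not tested. Genes with H3K4me3 alone hold no H3K27me3 within 1 kb by definition. An H3K27me3 interval lay over the TSS base at 43.6% of region genes (39.2 to 48.1%), 1 kb upstream at 43.4% (39.0 to 47.9%) and 1 kb downstream at 60.9% (56.4 to 65.2%). H3K4me3 covered the TSS base at 92.3% of region genes (89.5 to 94.4%). Both marks covered it at 180 of 468 (38.5%, 34.2 to 42.9%). At most of these genes the H3K27me3 interval therefore lay beside the start rather than over it.

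H3K4me1 reached over the start. At 90.8% of region genes (87.9 to 93.1%) an H3K4me1 interval covered the TSS base, compared with 57.6% (56.7 to 58.5%) of genes with H3K4me3 alone, where coverage was highest 500 bp upstream, at 68.4%, and dipped at the start. Within bands of H3K4me3 the shares were 85.4% (77.4 to 91.0%) against 73.0% (69.2 to 76.4%) in the lowest and 91.4% (87.0 to 94.4%) against 65.3% (63.6 to 67.1%) in the next. They were 92.4% (85.7 to 96.1%) against 55.6% (54.1 to 57.1%) in the third and 97.4% (86.8 to 99.5%) against 52.6% (51.1 to 54.0%) in the highest. In higher bands, H3K4me1 over the start was thus less frequent at genes with H3K4me3 alone but not at region genes. The bands hold different genes. For the 77 genes whose region passed both sets of limits, the shares by band were 100, 93.6, 84.2 and 100%. These bands held 9, 47, 19 and 2 genes, and the shares had no steady order.

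H3K36me3, the mark of transcribed bodies, was less frequent in region genes than in genes with H3K4me3 alone. At 5 kb downstream of the TSS an H3K36me3 interval was present at 5.13% of region genes (3.47 to 7.52%) and 45.2% (44.3 to 46.1%) of genes with H3K4me3 alone. Over the body of genes of at least 5 kb, taken from 1 kb past the TSS to the gene end, 136 of 434 region genes held an H3K36me3 interval (31.3%, 27.2 to 35.8%), against 85.6% (85.0 to 86.3%) with H3K4me3 alone, 6.82% (5.43 to 8.52%) with H3K27me3 alone and 17.9% (16.9 to 19.0%) with neither. In the 88 genes with both marks but no region the share was 44.3% (34.4 to 54.7%). Counted by any interval, the share of region genes lay between those with H3K4me3 alone and with neither mark. By mean cover over all lengths, region genes were close to genes with neither mark. H3K36me3 covered a mean of 4.79% of the body of region genes, 46.2% with H3K4me3 alone and 4.42% with neither mark. In genes of 5 to 20 kb the means were 8.83% at region genes and 4.97% with neither mark. They were 6.04% and 4.51% at 20 to 60 kb, and 2.26% and 2.47% from 60 kb.

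The difference in gene bodies was present in every band of H3K4me3 strength. H3K36me3 lay in the body of 18.0% (11.4 to 27.2%) of region genes and 31.6% (27.6 to 35.8%) of H3K4me3 genes in the lowest band, and of 27.2% (21.6 to 33.6%) and 72.6% (70.8 to 74.3%) in the next. It lay in 40.6% (31.5 to 50.3%) and 90.3% (89.4 to 91.2%) in the third band and in 60.5% (44.7 to 74.4%) and 96.1% (95.5 to 96.7%) in the highest. Among the 69 genes of sufficient length whose region passed both sets of limits, the share was 26.1% (17.2 to 37.5%). Region genes were longer, with a median body of 70.5 kb against 34.0 kb, and in genes of 5 to 20 kb the shares were 27.9% (19.5 to 38.2%) against 85.7% (84.4 to 86.9%). H3K27me3 intervals lay in the body of 77.4% (73.3 to 81.1%) of region genes and covered a median of 2.86% of it, so the mark seldom filled the gene. Expression was not analysed here.

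**Figure D3:**
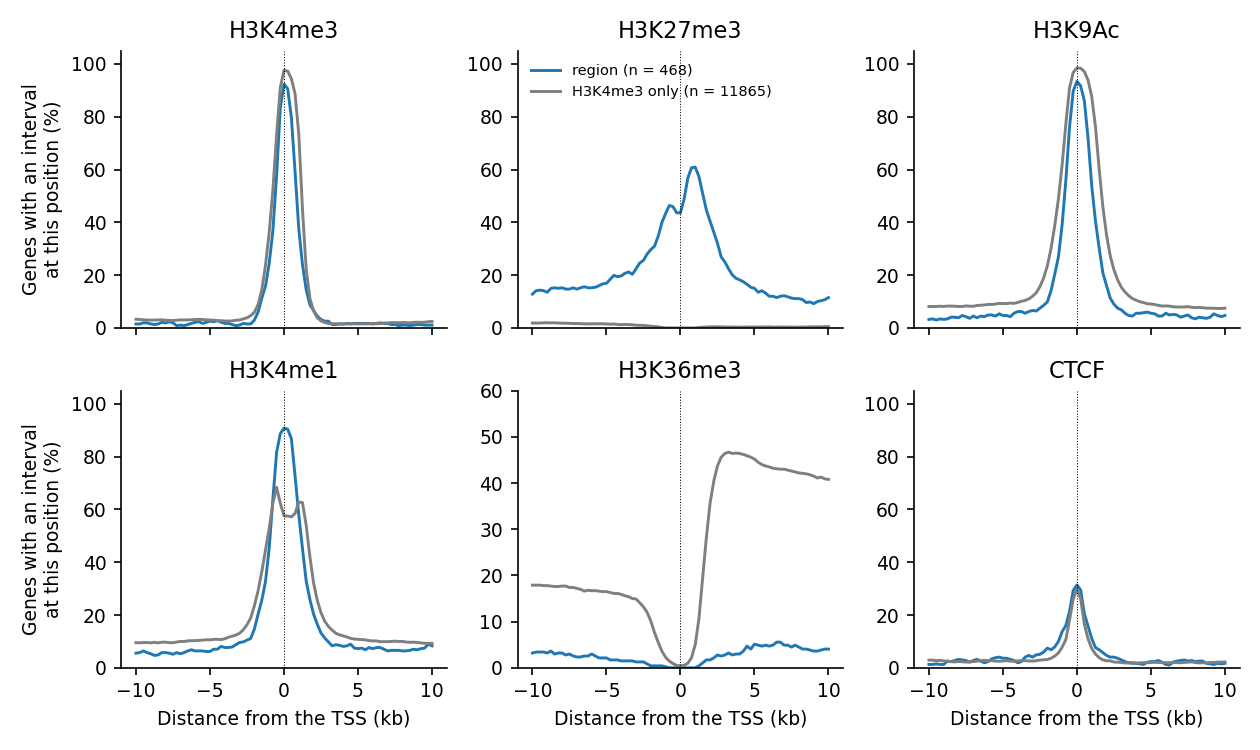
Percentage of genes with an interval of each mark at each distance from the canonical TSS, from 10 kb upstream to 10 kb downstream in steps of 250 bp, for 468 genes with a region (blue) and 11865 genes with H3K4me3 alone (grey). At region genes H3K27me3 reaches 60.9% at 1 kb downstream. The rule shapes this height, and the grey line has no H3K27me3 within 1 kb by definition. H3K4me1 covers the start at 90.8% against 57.6%. H3K36me3 stays at or under 5.56% where the grey line reaches 46.7%, and its panel has its own scale.

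Several gene families were followed as lists. Leaving aside the cell type markers, the lists held 748 annotated genes, from developmental regulators to potassium channels, polycomb proteins and ribosomal proteins, of which 71 had a region (9.49%, 7.59 to 11.8%), beside 2.32% (2.12 to 2.54%) of all protein-coding genes. The lists were not tested as sets. Under both sets of limits 16 of these genes were left, among 77 of all 20162. Of the genes named by list, HOXA4, ONECUT2, ATOH1, HEY1, WNT7A, WNT6, FZD3, NOTUM, GAS1, DLL4, FGF9, EFNA5, NTNG2, KCNQ1 and BMI1 passed both. The others named in the next paragraphs, such as SHH, NOG, VIM and LGR5, did not meet both sets of limits.

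Among transcription factor families, a region lay at 2 of 39 HOX genes (HOXA4 and HOXC5, 5.13%, 1.42 to 16.9%), at 8 of 126 other homeobox genes (6.35%, 3.25 to 12%) and at 3 of 44 forkhead genes (FOXN4, FOXO6 and FOXQ1, 6.82%, 2.35 to 18.2%). HOXA4, which patterns the body axis, had an H3K4me3 fold enrichment of 19.6 with an H3K27me3 interval of 4.40 over 120 bp. ONECUT2, a homeobox factor of liver and pancreas development, had 11.6 and 4.31. FOXQ1, a forkhead factor, lay entirely within H3K27me3, with 6.29 and 3.09. Regions also lay at 2 of 20 SOX genes (SOX8 and SOX9), 2 of 6 GATA genes (GATA3 and GATA6) and 0 of 17 T-box genes, and at 6 of 56 bHLH genes (10.7%, 5.0 to 21.5%). ATOH1, which directs intestinal cells to the secretory fate, had fold enrichments of 7.70 and 4.29. HEY1 and HEY2, repressors that act downstream of Notch, had H3K4me3 fold enrichments of 18.4 and 3.23 and H3K27me3 fold enrichments of 7.54 and 3.73. In these families most members without a region had H3K4me3 alone or neither mark.

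Factors of intestinal identity were also found among the region genes. SOX9, a factor of intestinal progenitors, combined strong H3K4me3 (30.6) with an H3K27me3 interval of 2.91 that did not pass the limits and shared 571 bp. GATA6, an endodermal factor, had 20.1 and 3.48. At both genes the H3K27me3 interval fell short of the limits. The stem cell receptor LGR5, a marker of colon epithelium, lay wholly within H3K27me3, with 6.32 for H3K4me3 and 4.58 for H3K27me3.

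Among signalling genes, Wnt ligands and receptors had a region at 9 of 34 (26.5%, 14.6 to 43.1%). WNT7A and WNT6, both ligands, had H3K4me3 fold enrichments of 8.22 and 10.8 and H3K27me3 fold enrichments of 5.05 and 3.90. The Frizzled receptor genes FZD3 and FZD8 differed in H3K4me3, at 28.4 and 5.08, with H3K27me3 at 4.33 and 4.55. Of 13 secreted Wnt antagonists only NOTUM, a secreted enzyme that inactivates Wnt proteins, had a region. No gene of the Wnt ligands and receptors carried H3K27me3 without H3K4me3. A region also lay at 4 of 16 hedgehog genes (25%, 10.2 to 49.5%). They were SHH and IHH, the ligands, at 3.62 and 4.89 for H3K4me3, and GLI2 and GAS1 at 17.3 and 11.1. GLI2 is a transcription factor of the pathway and GAS1 a co-receptor. Only GAS1 passed both sets of limits, and SHH and IHH passed neither.

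In the BMP and TGF-beta pathways 6 of 54 genes had a region (11.1%, 5.19 to 22.2%). The antagonists NOG and CHRD, which bind BMPs outside the cell, had H3K4me3 fold enrichments of 19.2 and 24.1 and H3K27me3 fold enrichments of 3.27 and 3.02. FST, an antagonist of activins, had 4.63 and 3.71. INHBB, an activin subunit, had 16.7 and 3.41. All 4 encode secreted proteins. Of FGF genes 4 of 27 had a region (14.8%, 5.92 to 32.5%), namely the growth factors FGF9 (10.1), FGF3 (14.6) and FGF2 (19.2) and the decoy receptor FGFRL1 (14.1). DLL4, a Notch ligand, was the only one of 16 Notch genes, at 9.81 and 3.99.

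Genes of axon guidance had a region at 12 of 62 (19.4%, 11.4 to 30.9%). EFNA5, an ephrin, had fold enrichments of 6.59 for H3K4me3 and 4.72 for H3K27me3. NTNG2, a netrin, had 11.6 and 3.94. The receptor genes NRP2 and EPHA4 had 13.2 and 13.0 for H3K4me3. Of the voltage-gated potassium channels 4 of 40 had a region (KCNQ1, KCNQ3, KCNH8 and KCND3, 10%, 3.96 to 23.1%), and 11 had H3K27me3 alone. KCNQ1, which forms a channel of heart and colon epithelium, had 15.2 and 4.34. Of genes often hypermethylated in colorectal cancer, 3 of 45 had a region (6.67%, 2.29 to 17.9%), namely VIM (5.41), which encodes the filament protein vimentin, IGF2 (10), a growth factor, and TIMP3 (9.73), a metalloprotease inhibitor. DNA methylation was not measured.

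In the polycomb machinery itself 3 of 37 genes had a region (8.11%, 2.80 to 21.3%), BMI1 (16.4 for H3K4me3, 5.02 for H3K27me3), CBX2 and SCML1 (6.00 and 2.71). The region at CBX2 shared only 10 bp, and that at SCML1 passed neither set of limits. All 37 genes had H3K4me3 within 1 kb of the TSS, and 4 had H3K27me3. The remaining lists of common cellular functions had no region. All 79 annotated genes of cytoplasmic ribosomal proteins and all 20 genes of H3K4 methyltransferases and K27 demethylases had H3K4me3 alone at the TSS. The upper limit of the 95% Wilson interval for a region was 4.64% for the ribosomal genes and 16.1% for the latter.

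**Figure D4:**
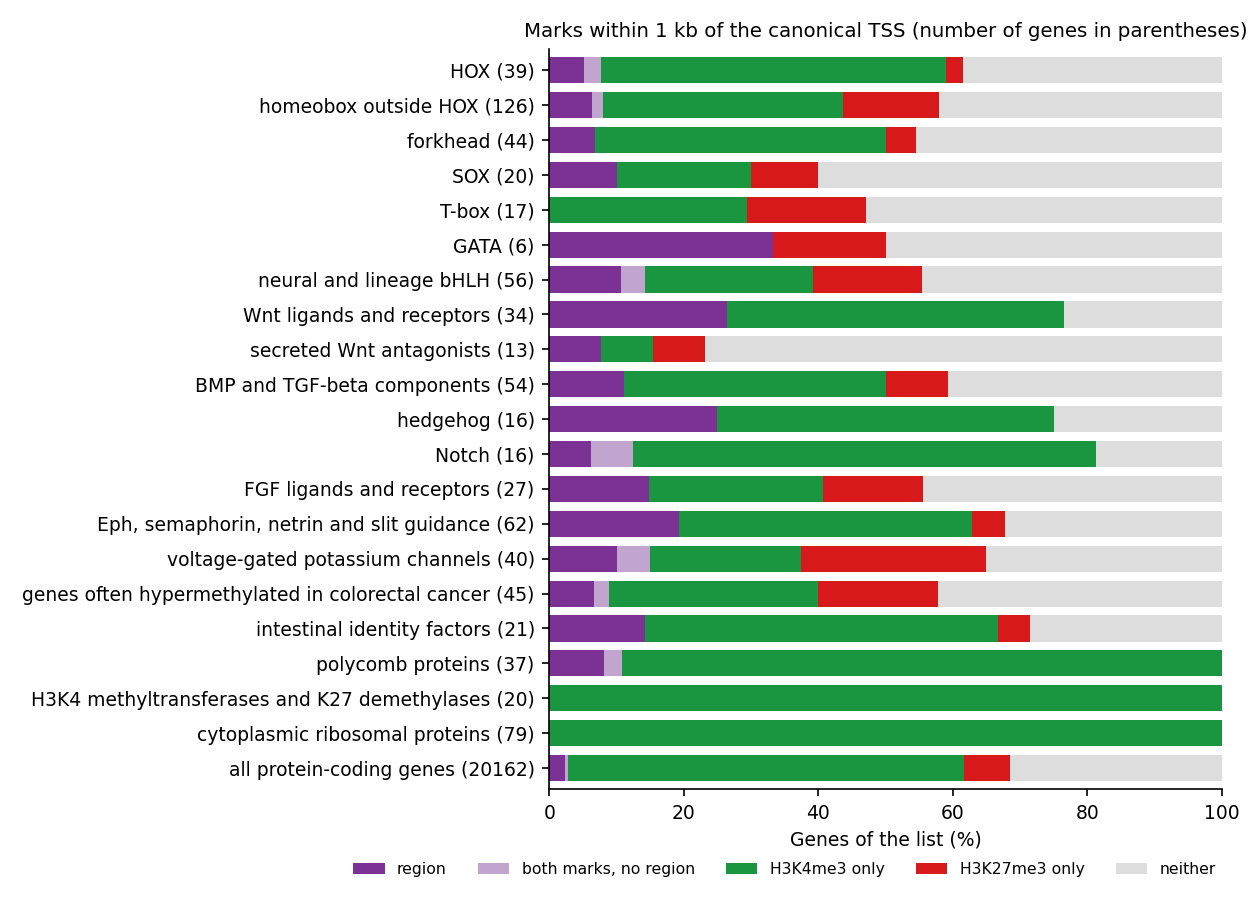
Bars give the percentage of genes in each list by the marks within 1 kb of the canonical TSS, with the number of annotated genes in parentheses. Regions (dark purple) take 26.5% of the Wnt ligands and receptors and 25% of the hedgehog genes, against 2.32% of all protein-coding genes and none of the ribosomal protein genes.

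Among the 73 regions with a coding TSS that passed both sets of limits, HEY1 (chr8:80679518-80681363) had the highest H3K27me3 fold enrichment, 7.54, and shared 532 bp with that interval. NOTUM (chr17:79917313-79919638) followed with 5.75 and was covered to 99.9%. Its H3K4me3 fold enrichment of 24.5 and its H3K9Ac fold enrichment of 20 were also high. NOTUM was among the first 10 by each of the 3 measures of rank. CHN1 (chr2:175869167-175870738) had 5.30, at 1 edge of 144 bp. PLAG1, a zinc finger factor, and CHCHD7, which encodes a mitochondrial protein, share a region with 5.13. The rest of the first 10 were WNT7A, BMI1, ATP6V1C2 (a subunit of the vacuolar proton pump, 4.99), SPHK1 (sphingosine kinase, 4.87), SSBP2 (a DNA-binding protein, 4.8) and EFNA5.

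Ranked by H3K4me3 instead, ASAP1 (chr8:131454846-131457261), which encodes a regulator of Arf GTPases, came first with 34.0 and lay wholly within an H3K27me3 interval of 10855 bp. FZD3 was next with 28.4. RTN4RL1, a receptor of the Nogo family, had 25.1. SAMD11 and TESC, a calcium-binding protein, had 24.1 and 23.9 and were covered completely. The others were SCRT1 (a neural repressor, 22.6), NOS1AP (an adaptor of nitric oxide synthase, 22.2) and MEGF11 (a cell adhesion receptor, 21.5), beside NOTUM and CHN1. High H3K4me3 and full H3K27me3 cover thus met at several of these genes.

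By bases shared, the region of BCL11A (chr2:60779280-60782865), which encodes a zinc finger repressor, came first with 3586 bp inside an H3K27me3 interval of 46271 bp. SPHK1 followed with 3189 bp and DLL4 with 3070 bp. KIF26B, of the kinesin family, shared 2793 bp, and CASZ1, a zinc finger factor, 2599 bp. Of the 73 regions from which the rankings were drawn, 1 overlapped H3K36me3 (1.37%, 0.242 to 7.36%).

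A part of the regions consisted of repetitive sequence, and this part held the highest H3K27me3 values. A run of at least 30 identical bases occurred in 56 regions (7.10%, 5.51 to 9.10%) and in 179 comparison intervals (1.19%, 1.03 to 1.38%). In another 29 regions (3.68%, 2.57 to 5.23%) and 49 comparison intervals (0.327%, 0.248 to 0.432%), at least 50% of the words of 12 bases recurred within the interval. Of the 10 regions with the highest H3K27me3 fold enrichment, 2 held such a run and 5 such recurring words, and 1 had a coding TSS. Of the 50 highest, 26 belonged to these classes. No region of these classes lay within 1 kb of a coding TSS.

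The regions with long runs were narrow. Their median width was 287 bp, all 56 runs were of A or T, and at 41 the run reached within 2 bases of an end of the region. The 179 comparison intervals with a run had a median width of 1368 bp. Of their runs 176 were of A or T, and 64 reached an end in this way.

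**Figure D5:**
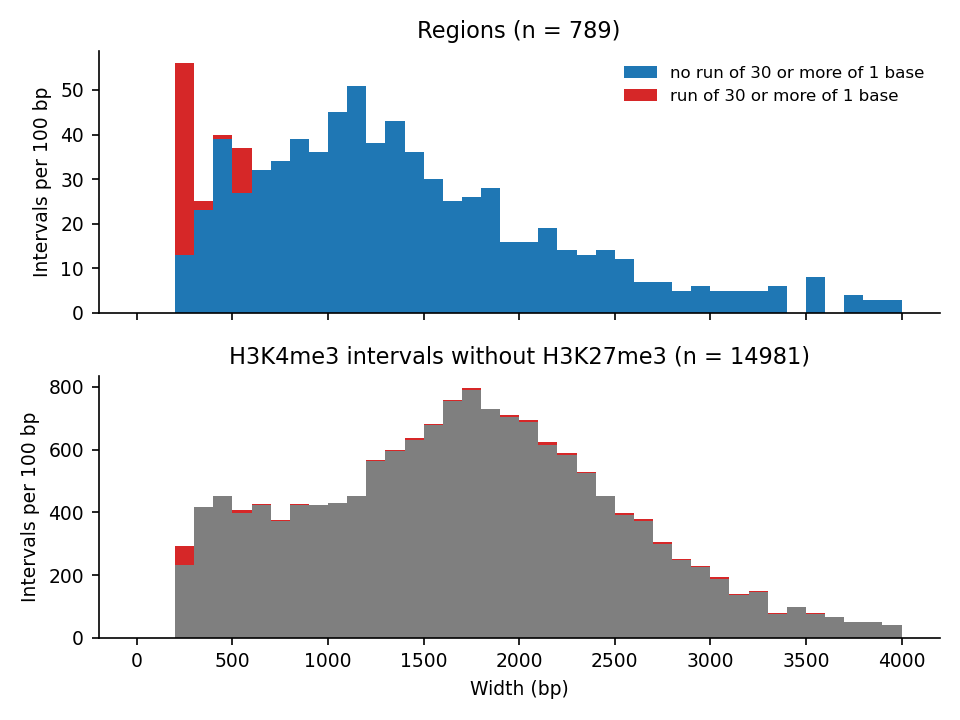
Number of intervals per 100 bp of width, for the 789 regions (top) and the 14981 comparison intervals (bottom), with intervals that hold a run of at least 30 identical bases in red. Red bars make up 44 of the 68 regions narrower than 350 bp.

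The other marks were called at many of the runs as well. CTCF overlapped 53 of the 56 regions with a run (94.6%, 85.4 to 98.2%), H3K36me3 22 (39.3%, 27.6 to 52.4%), H3K9Ac 47 (83.9%, 72.2 to 91.3%) and H3K4me1 37 (66.1%, 53.0 to 77.1%). At the 179 comparison intervals with a run the shares were 61.5, 21.2, 86.0 and 72.1% in this order. All 4 together were present at 21 of the 56 regions (37.5%, 26 to 50.6%). They were present at 6 of the 29 regions with recurring words (20.7%, 9.85 to 38.4%) and at 17 of the 704 regions of other sequence (2.41%, 1.51 to 3.83%). Among the comparison intervals the share was 10.1% (6.46 to 15.3%) of the 179 with a run and 5.73% (5.37 to 6.12%) of all. Within the regions, all 4 marks were thus called together more often at the runs than in other sequence. Words of 32 bases that occur more than once in hg19 made up at least 50% of 111 regions (14.1%, 11.8 to 16.7%) and of 6.47% (6.09 to 6.88%) of the comparison intervals. The part that repeated sequence has in these calls was not tested.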

How the data were processed

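Fold enrichment, a ratio, and the −log10 p and −log10 q-values of each interval were computed by the authors with a MACS peak caller and are used as deposited. The Methods describe alignment to hg19 with BWA 0.7.12 and broad intervals from MACS2, whereas the submitters' notes list MACS 1.4.2 and SAMtools 0.1.19, and the input library is not described. Intervals of 6 libraries were read without any filter. Coordinates are GRCh37 (hg19), and genes come from GENCODE 44 lifted to that build, with the canonical transcript's TSS where annotated. Mitochondrial genes and second copies of pseudoautosomal genes were dropped, which left 20162 protein-coding genes.

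A region is an H3K4me3 interval under 4000 bp that shares at least 1 bp with H3K27me3, and its gene is any with a TSS within 1 kb. The region takes the values of the overlapping H3K27me3 interval with the highest fold enrichment. Named genes are the first 10 in 3 rankings of regions past both sets of limits with a coding TSS. The rankings are by H3K27me3 fold enrichment, by H3K4me3 fold enrichment and by bases shared. Up to 4 genes of each list are also named, in the order of the H3K27me3 −log10 q-value. The 3 printed promoters come from those outside chromosome 8 whose window touches no exon of another transcript. The window of NOTUM also met this rule but is not printed. Runs, words and their thresholds were added after the data were seen. Members and lists were chosen with earlier results of these data known.

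Shares carry Wilson intervals, and Spearman's rho is descriptive. Work was done with Python 3.11.15, numpy 2.4.6, pandas 2.3.3, scipy 1.17.1, numba 0.67.0, matplotlib 3.10.9, pyfaidx 0.9.0.4, samtools 1.23.1 and bedtools 2.31.1.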

Additional observations from a re-analysis of the deposited data

How the results depend on the processing

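The counts of regions, coding genes and listed genes, the shares of regions with each other mark, the medians of GC content and H3K4me3 fold enrichment and the share with GGGCGG were recomputed under alternatives, and other values were not. Of the recomputed values, 28 come from alternatives chosen after the data were seen. A value counts as moved when it leaves the 95% interval of the first value or, for counts, a factor of 1.5. Of 103 values, 35 stayed and 68 moved. Libraries could not be paired, since every mark has a single one. The causes of these moves were not tested, and counts shrink by construction under stricter rules.

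The 789 regions became 208 with H3K27me3 past the limits, 496 with H3K4me3 past them, 113 with both and 458 with H3K27me3 over at least 50% of the region. The 468 coding genes became 90 with H3K27me3 past the limits, 77 with both and 201 with 50% cover, and the 71 listed genes 16 with both and 36 with 50% cover.

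H3K9Ac, at 91.4%, became 87.5% with H3K27me3 past the limits, 99.8% with H3K4me3 past them, 99.1% with both, 87.3% with 50% cover, 93.5% without long runs and recurring words, 96.3% without words found elsewhere, 99.1% with a coding TSS and 54.9% for H3K9Ac past its limits. By band it was 80.8, 100, 100 and 100%. H3K4me1, at 90.5%, became in the same order 86.5, 99.2, 99.1, 85.2, 94.3, 95.3, 98.2 and, past its own limits, 83.9%. It was 88.1% where it had to cover at least 50%, and 80, 98.6, 100 and 100% by band.

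H3K36me3, at 7.10%, became in that order 16.8, 3.43, 9.73, 9.39, 3.41, 3.69 and 1.10%, with 0% past its own limits, 5.07% with 50% cover by the mark, and 13.2, 1.79, 0 and 9.52% by band. Only 90 of the 40010 H3K36me3 intervals passed those limits, and 0.401% of the comparison intervals overlapped one, so little can be read from the 0%. CTCF, at 55.3%, became 72.1% with H3K27me3 past the limits, 72.6% with both, 50.1% under 2000 bp, 24.2% for CTCF past a q-value of 1e-10 and a fold enrichment of 5, 36.1% with 50% cover by the factor, and 61.9 and 81.0% in the upper bands.

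The median GC content, at 65.6%, became 61.1% with H3K27me3 past the limits, 67.7% with H3K4me3 past them, 64.3% with 50% cover, 66.7% without runs and recurring words, 66.4% without words found elsewhere and 67.9% with a coding TSS. The median H3K4me3 fold enrichment, at 9.09, became 6.64 with H3K27me3 past the limits, 13.1 with H3K4me3 past them, 11.3 with both, 6.11 with 50% cover, 7.58 under 2000 bp, 10.1 without runs and recurring words, 10.4 without words found elsewhere and 12.6 with a coding TSS.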

Other observations

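A few H3K27me3 intervals held several regions, with differing amounts of recurring sequence. The interval chr3:195211462-195233623 (22162 bp, fold enrichment 5.24) held 5 regions and no annotated TSS. The interval chr15:102289956-102305969 (16014 bp, 5.36) held 4 regions, with the pseudogene DNM1P47, and chr9:68995824-69004864 (9041 bp, 4.68) held 3, with the microRNA gene MIR1299. Words of 12 bases that recur made up at least 65.0% of each region in the first and 69.5% in the second, but at most 21.3% in the third. These clusters were chosen after their values were seen.

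Regions without a TSS differed from those at coding genes in the histone marks they shared. Of the 245, H3K36me3 overlapped 36 (14.7%, 10.8 to 19.7%), beside 6.90% (6.09 to 7.80%) of the 3408 comparison intervals without a TSS. Without long runs and recurring words it overlapped 5 of 166 (3.01%, 1.29 to 6.86%), beside 6.11% (5.34 to 6.98%), so most of the overlaps lay in repeats. H3K9Ac overlapped 199 of the 245 (81.2%, 75.9 to 85.6%) and H3K4me1 193 (78.8%, 73.2 to 83.4%), beside 95.1% (94.4 to 95.8%) and 89.5% (88.4 to 90.5%) of the comparison intervals. Without long runs and recurring words these shares were 84.3% (78.0 to 89.1%) and 86.7% (80.7 to 91.1%), beside 96.3% (95.6 to 96.9%) and 90.9% (89.9 to 91.8%). The median H3K4me3 fold enrichment of these regions was 4.93, near the 4.83 of those comparison intervals, whereas at coding TSSs it was 12.6 against 22.2.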
